A study of Bos grunniens with 18 samples.

Results

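Of the 14542 peaks in the list of m6A candidates of the yak caput, 2290 (15.7%) held no adenosine that was also listed in the corpus or the cauda. These caput-only peaks are described here. They were chosen by their listing: a peak was taken when none of its listed adenosines occurred in either of the other lists. The lists come from a profile of N6-methyladenosine (m6A) in the epididymis of Bos grunniens, with libraries from the caput (head), corpus (body) and cauda (tail) of the duct. The animals were 6 healthy males, adult and 4 years old, with no treatment or genetic change named in the labels. Each region had 3 libraries enriched with an antibody against m6A (RIP) and 3 unenriched input libraries of poly(A) RNA, 18 in all, and no label ties a library to an animal. The deposited lists hold 1 set of peaks per region and nothing per library, so the spread between replicates and the depth behind a peak are unknown. Levels of marker genes were not used here, so the labelled tissue was not checked against them.

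The m6A mark is placed on messenger RNA by a complex built around METTL3 and METTL14, is removed by FTO and ALKBH5, and is bound by reader proteins of the YTH family, which affect the splicing, translation and decay of the transcript. In the epididymis, the caput epithelium is highly active in secretion, and sperm from the testis pass through it before the corpus and cauda. The duct wall also holds acidifying clear and narrow cells, basal cells, smooth muscle, vessels and leukocytes, and the efferent ducts that join the caput carry multiciliated cells. In bulk tissue, a cell type that is rarer and a cell type with less RNA per cell cannot be told apart.

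The caput-only peaks were small. They had a median of 3 listed adenosines (interquartile range 2 to 5, at most 54), against 6 (3 to 9) in the other 12252 caput peaks. A single adenosine made up 386 of them (16.9%), against 6.43% of the other caput peaks. Spans from first to last base, introns included, were at most 200 bases in 708 caput-only peaks (30.9%) and in 13.9% of the other caput peaks. Peaks listed only in the corpus (1779, 12.9% of that list) or only in the cauda (2107, 14.9%) had the same median of 3 adenosines, and 28.6% and 32.3% of them spanned at most 200 bases. Small size was thus seen in the single-region peaks of all 3 lists. The rule itself is easier to meet for a peak with few adenosines.

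The rule has a hard edge at 0 shared adenosines. Just outside it were 1070 caput peaks with exactly 1 shared adenosine, whose median was also 1 listed adenosine, and 1411 with 2. A further view is given by the 408 caput peaks with some, but under 50%, of their adenosines shared, which had a median of 6. Against the corpus list alone, 3777 caput peaks had no shared adenosine, and against the cauda list alone 3620. Beside the caput-only peaks, 1330 caput peaks had adenosines in the corpus list and none in the cauda list, 1487 had them in the cauda list and none in the corpus list, and 9435 had them in both. In all, 16407 caput adenosines were listed in no other region, of which 9421 lay in the caput-only peaks and 6986 in peaks that also held shared adenosines.

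Each listed adenosine carries the authors' combined prediction score and a class. Scores from 0.557 are classed as m6A sites of low confidence, from 0.584 moderate, from 0.62 high and from 0.676 very high, and lower scores as no m6A site. In the caput-only peaks, 1635 of 9421 adenosines were classed as m6A sites (17.4%, 95% Wilson interval 16.6 to 18.1), against 19.3% (19.0 to 19.5) in the other caput peaks. The very high class made up 132 of them (1.40%, 1.18 to 1.66), against 2.15% (2.06 to 2.24). Adenosines of corpus-only and cauda-only peaks were classed in 18.3% (17.4 to 19.3) and 17.3% (16.5 to 18.1) of cases. The intervals cover counting error only and treat adenosines of 1 peak as independent, which they are not. Caput adenosines listed in no other region were classed in 17.4% of cases inside caput-only peaks and in 17.0% (16.1 to 17.9) inside peaks that also held shared ones, which is within the intervals.

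At least 1 classed adenosine was held by 964 caput-only peaks (42.1%, 40.1 to 44.1) and by 60.7% (59.8 to 61.5) of the other caput peaks. Most of this gap followed the size of the peaks. Among peaks of 1, 2, or 3 to 4 adenosines, the share with a classed one was 11.1%, 24.4% and 43.3% in the caput-only peaks and 11.4%, 24.6% and 43.2% in the others, differences well within their intervals. In peaks of 5 to 9 adenosines it was 63.0% (59.0 to 66.7) against 68.6% (67.2 to 69.9), and these intervals do not overlap. In peaks of 10 or more it was 92.1% (86.0 to 95.6) against 92.0% (91.0 to 92.9). The plot of size and class shows both patterns. By number, 1326 caput-only peaks held 0 classed adenosines, 598 held 1, 225 held 2 and 79 held 3.

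**Figure D1:**
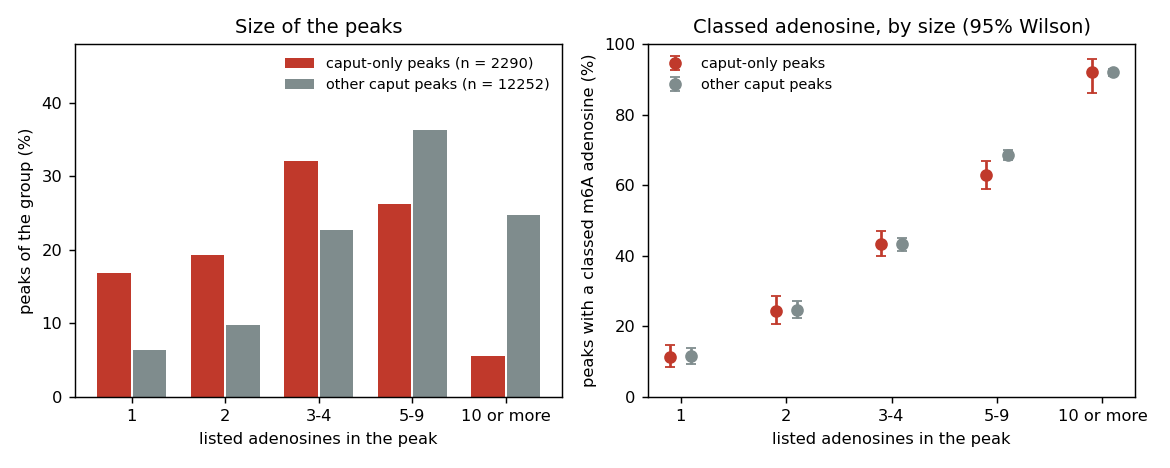
Left, the share of caput-only peaks (red, n = 2290) and other caput peaks (grey, n = 12252) by the number of listed adenosines. Right, the share of peaks of each size with at least 1 adenosine classed as an m6A site, with 95% Wilson intervals; caput-only peaks are smaller, while the right-hand shares lie close together except at 5 to 9 adenosines (63.0% against 68.6%).

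Among caput-only peaks assigned to 1 gene with a symbol, those with the most classed adenosines were led by FAM49B, whose product binds the small GTPase RAC1. Its peak on chromosome 18, from 9813051 to 9825871, held 54 listed adenosines, of which 17 were classed, with a top score of 0.732. A peak of zfand3, a zinc finger gene, held 14 classed among 35, and the peak of C9orf131, an open reading frame with little known function, 13 among 35. SUOX encodes sulfite oxidase, the mitochondrial enzyme that turns sulfite into sulfate. Its peak on chromosome 5, from 47516653 to 47517978, held 30 adenosines, of which 10 were classed. PLIN4, a perilipin that coats lipid droplets, had the densest of these peaks: 10 of its 12 adenosines were classed within 199 bases. C22orf46, an open reading frame, had 10 classed of 43, ZNF280B, a zinc finger gene, 9 of 28 on chromosome Y, and SORBS3, which encodes the adhesion protein vinexin, 8 of 21. A peak without a gene, on chromosome 4 from 18719882 to 18752399, held 11 classed of 47 and would rank among them. Of the named genes, FAM49B, zfand3, PLIN4 and SORBS3 also had peaks in the corpus and cauda lists, at other adenosines. A second gene identifier with the symbol ZNF280B also carried a caput-only peak, and no source used here says how reads of similar copies were placed, which leaves these values uncertain.

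Ranked by the score of the best adenosine among peaks with 1 named gene, SAMD9 stood first with 0.803 at position 119531330 of chromosome 4. This gene encodes an interferon-inducible antiviral protein, and its peak of 151 bases held 6 adenosines, of which 1 was classed. SUOX followed with 0.777 at position 47517048, in a group of 3 adenosines of very high confidence at 395, 400 and 417 bases from the start of the peak. Then came Mtcl1 (0.766), a microtubule crosslinker, GPD2 (0.75), the mitochondrial glycerol-3-phosphate dehydrogenase, and RNF43 (0.746), a ubiquitin ligase that removes WNT receptors. SPHKAP (0.744), an anchor of protein kinase A, FAM49B and FANK1 (0.726) completed these 8. Without that limit, 7 peaks that had no named gene of their own scored above the lowest of the 8, the highest at 0.864 on chromosome 27, from 13454734 to 13454879, with 3 classed of 4 adenosines. In GPD2, 3 of 5 adenosines were classed, with scores of 0.705, 0.707 and 0.75. The top adenosines of the 8 were all of the very high class. Mtcl1, GPD2 and FAM49B also had peaks in the corpus and cauda lists, at other adenosines. The same peak of SPHKAP was lower in the corpus (log2 fold -1.12, adjusted p = 0.0037), per the authors' deposited table. A site at the FANK1 peak was likewise lower (-0.37, adjusted p = 0.033), per the authors' deposited table. In cauda over caput, SPHKAP and FANK1 had -0.35 (adjusted p = 0.61) and -0.38 (adjusted p = 0.53), per the authors' deposited table. In corpus over caput, SUOX had -0.0925 (adjusted p = 0.59) and Mtcl1 -0.64 (adjusted p = 0.16), per the authors' deposited table. GPD2 had -0.26 (adjusted p = 0.86) and RNF43 -0.33 (adjusted p = 0.98), per the authors' deposited table. The peaks of SAMD9 and FAM49B had no site in that comparison.

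**Figure D2:**
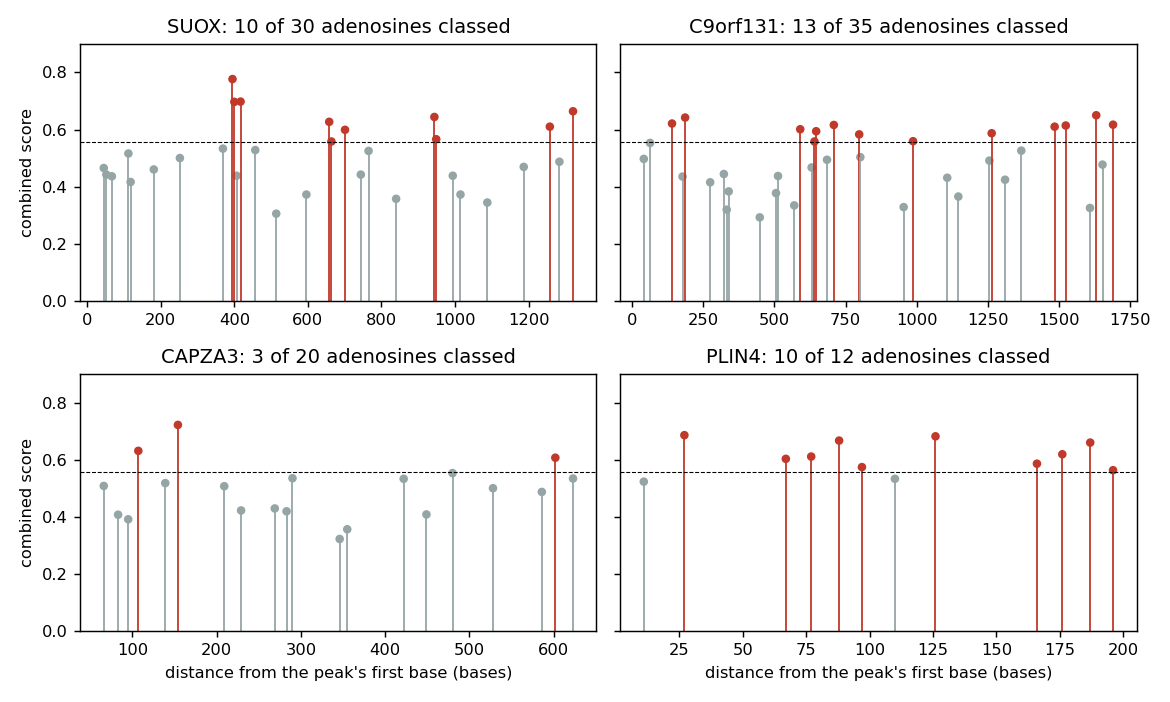
Combined score (vertical axis) of every listed adenosine by its distance in bases from the first base of the peak, for the caput-only peaks of SUOX, C9orf131, CAPZA3 and PLIN4. Red marks adenosines classed as m6A sites, at or above the dashed line at 0.557; 10 of 30, 13 of 35, 3 of 20 and 10 of 12 are red.

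Caput-only peaks were found on every chromosome of the caput list. Their share of caput peaks ran from 11.2% (28 of 250, 95% Wilson interval 7.86 to 15.7) on chromosome 18 to 22.6% (44 of 195, 17.3 to 28.9) on chromosome 23. On chromosome X it was 18.1% (74 of 410) and on chromosome Y 22.1% (17 of 77, 14.3 to 32.5). In full span, 147 caput-only peaks overlapped a corpus or cauda peak without sharing an adenosine, 78 of them a corpus peak and 94 a cauda peak. The other 2143 lay a median of 13344 bases from the nearest corpus or cauda peak, and 426 of them (19.9%) within 1000 bases.

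Genes were assigned through the peaks that the authors compared between regions, here called sites. A site in any of the 3 comparisons covered an adenosine in 1396 caput-only peaks, and 1387 peaks (60.6%) fell to exactly 1 gene and 9 to more. The other 894 (39.0%) had no site and hence no gene, against 3.86% of the other caput peaks. For corpus-only and cauda-only peaks, that share was 36.3% and 38.4%. Peaks without a site had a median of 3 adenosines, those with a site 4, and the classed share of adenosines was 17.7% (16.4 to 19.1) and 17.2% (16.3 to 18.1). The peaks with a gene belonged to 1228 genes, which is 16.3% of the 7531 genes with a caput peak. Most of these genes, 1099, had 1 caput-only peak, 108 had 2, 15 had 3 and 6 had 4 or more.

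In 637 of the 1228 genes, the caput-only peak stood beside a shared caput peak in the same gene. In 493 genes every peak assigned to the gene was caput-only, and in the other 98 a corpus or cauda peak was covered by a site of the gene. A corpus or cauda peak without a site had no gene, so it could lie uncounted in any of the 493. Listed in the caput alone thus means that no assigned peak was found elsewhere. For 89 of the 98, at least 1 such peak fell to that gene alone, and for 9 only to several genes at once. By the same rule, 280 genes were listed in the corpus alone and 412 in the cauda alone. Caput-only peaks of the 493 genes held a classed adenosine in 51.9% of cases (47.8 to 55.9), with a median of 4 adenosines. Those of the remaining genes did so in 38.2% (34.9 to 41.6), with a median of 3. Among named genes listed in the caput alone, the most classed adenosines were those of C9orf131 (13), SUOX (12 in 2 peaks), C22orf46 (11 in 3 peaks) and JHY (10 in 4 peaks), the last a gene required for normal motile cilia. These 4 genes were chosen after their values were seen.

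Within the 637 genes that had both kinds of peak, 703 caput-only peaks could be set beside 1231 shared ones. Their adenosines were classed in 16.3% of cases (15.0 to 17.8) against 19.5% (18.7 to 20.3) in the shared peaks of the same genes. The mean score per gene was lower in the caput-only peaks for 369 genes and higher for 268, with a median difference of -0.015. Along the gene's strand, 359 of the 703 caput-only peaks (51.1%) lay upstream of all shared caput peaks of their gene, 218 (31.0%) downstream of all and 126 (17.9%) between them. Corpus-only peaks lay upstream in 48.7% and cauda-only peaks in 46.8% of cases, so the upstream position was the most frequent in the single-region peaks of each list. Whether these places are coding or untranslated was not analysed here.

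The authors' comparisons give a fold per site between regions, with no values per library. They do not settle methylation against transcript abundance, since the sources used here do not say whether input was taken into account. The peaks were chosen on the same regions, so lower folds outside the caput are built in and support nothing. In the authors' deposited table, 988 sites of corpus over caput covered an adenosine of a caput-only peak, with a median log2 fold of -0.33 against -0.02 over all 14061 sites. With the threshold at 0.05 on the adjusted p of the authors' deposited table, 93 of the 988 (9.41%) were lower in the corpus, against a background of 1.86%, and 10 (1.01%) were higher, against 1.12%. In cauda over caput, the authors' deposited table had 969 such sites with a median log2 fold of -0.26, against 0.043 over all 13826. There 36 (3.72%) were lower in the cauda, against a background of 0.861%, and 2 (0.206%) were higher, against 1.41%, per the authors' deposited table. At an unadjusted p under 0.05, the lower sites numbered 274 (27.7%, background 9.24%) and 179 (18.5%, background 6.68%), per the authors' deposited table.

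The closest match is a site with the same start and end as the caput-only peak. In the authors' deposited table, 478 caput-only peaks were such sites in corpus over caput. A negative log2 fold was held by 419 of them (87.7%), against 52.5% of all sites, and a positive one by 59, per the authors' deposited table. The median log2 fold of the 478 was -0.33 (interquartile range -0.66 to -0.15), a corpus value of 0.794 times the caput value, per the authors' deposited table. Of the 478, 51 (10.7%) were at least 2-fold lower, against 1.59% of all sites, per the authors' deposited table. Past the adjusted threshold as lower were 38 (7.95%), against 1.86% of all sites, per the authors' deposited table. In cauda over caput, the authors' deposited table had 432 such sites, with a median log2 fold of -0.29 (0.815 times). Of the 432, 22 (5.09%) were at least 2-fold lower, against 1.005% of all sites, per the authors' deposited table. Past the adjusted threshold as lower were 9 (2.08%), against 0.861% of all sites, per the authors' deposited table. Among peaks that the authors compared as such, the listing in the caput alone thus went mostly with folds smaller than 2. A peak missing from a list is not a measured absence. Sites with a classed adenosine had a median log2 fold of -0.38 (n = 201) and those without one -0.32 (n = 277) in corpus over caput, and -0.27 (n = 190) and -0.31 (n = 242) in cauda over caput, per the authors' deposited table.

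The comparison of cauda with corpus leaves the caput out. In the authors' deposited table, 290 sites of cauda over corpus covered an adenosine of a caput-only peak, and their median log2 fold was 0.027 against 0.046 over all 13917. By the authors' test, 0 of them passed the adjusted threshold as lower (background 0.719%; 11 had an unadjusted p under 0.05) and 3 (1.03%) as higher (background 1.24%), per the authors' deposited table. Named after their values were seen, the 3 were TTC16 (log2 fold 0.96, adjusted p = 8.9e-07), TEX50 (0.78, adjusted p = 0.042) and CAPN11 (0.55, adjusted p = 0.019), a calpain protease, per the authors' deposited table. TTC16 was also lower in the corpus than in the caput, at -1.15 (adjusted p = 4.0e-13), with a cauda over caput log2 fold of -0.20 (adjusted p = 0.66), per the authors' deposited table. The 3 TTC16 sites overlap but do not share start and end.

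**Figure D3:**
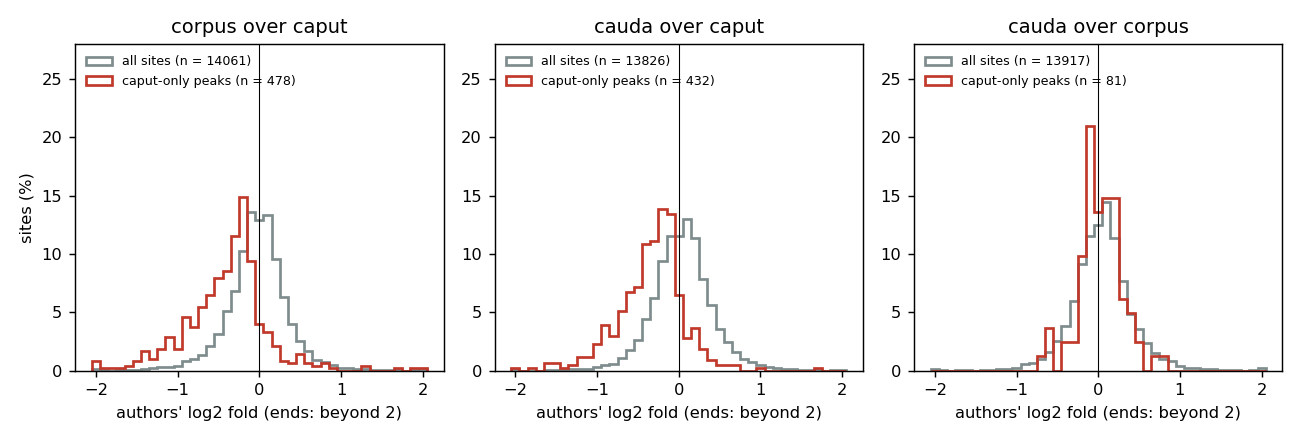
Distribution of the log2 folds of the authors' deposited table for all sites (grey) and for sites with the span of a caput-only peak (red) in the 3 comparisons, as percent of the sites of each group, with folds beyond 2 collected in the end bars. The red curves are shifted to negative values against the caput (medians -0.33 and -0.29), where the rule used the contrast, and centred near 0 in cauda over corpus (0.010), all from the authors' deposited table.

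In the authors' deposited table, the 93 lower sites of corpus over caput lay in 86 genes, 50 of them listed in the caput alone. Among all 1228 genes with a caput-only peak, 493 were listed in the caput alone. The share among genes with a site in this comparison was not counted. The lowest were SEL1L2 (log2 fold -3.37), a relative of an adaptor of protein degradation in the endoplasmic reticulum, and Tsks (-2.91), a substrate of testis-specific kinases, per the authors' deposited table. RWDD1 (-2.82), PDZD2 (-2.80), a PDZ-domain scaffold, CREM (-2.25), a cAMP-responsive transcription factor of spermatids, and ZNF474 (-2.18) followed, per the authors' deposited table. The peaks behind SEL1L2, Tsks, RWDD1 and CREM held 5, 8, 2 and 1 adenosines, of which 0 were classed. PDZD2 had 3 classed of 6 and ZNF474 2 of 7. The p-values of SEL1L2 and ZNF474 are listed as 0 and may be placeholders, and the adjusted p of the other 4 ranged from 1.3e-08 to 0.032, per the authors' deposited table.

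The 36 lower sites of cauda over caput in the authors' deposited table lay in 34 genes, 22 of them listed in the caput alone. For all genes with a caput-only peak this was 493 of 1228, and the share among genes with a site in this comparison was not counted. PDZD2 again had a log2 fold far below 0 (-3.64, adjusted p = 2.1e-07), at the same 299 bases of chromosome 23, from 40856182 to 40856480, plus strand, per the authors' deposited table. FAM81A (-2.47, adjusted p = 0.0017), TMEM200A (-2.40, adjusted p = 3.3e-06) and ADAM28 (-2.26, adjusted p = 3.4e-06), a metalloprotease-family gene, came next, per the authors' deposited table. CEP120, needed for the growth of centrioles, and BSND, a subunit of chloride channels of acidifying and renal cells, were both at -1.61 (adjusted p = 1.9e-04 and 0.032), per the authors' deposited table. The TMEM200A peak held 7 classed of 23 adenosines, that of ADAM28 2 of 12, and those of FAM81A, CEP120 and BSND 0 of 3, 1 and 4.

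Both comparisons share the caput libraries, so their folds are not independent. By the authors' deposited table, 19 genes had a site lower in the corpus and a site lower in the cauda at caput-only peaks. In 17 of them both sites covered the same caput-only peak, and in the other 2, RGSL1 and TSPAN14, different ones, by the authors' deposited table. The share of all genes with lower sites in both comparisons was not counted. Some corpus folds behind the 17 were near 1, with log2 folds of -0.019 for ADAM28 and -0.051 for GCNT2, per the authors' deposited table. At another caput-only peak of GCNT2 a site was higher in the corpus (0.43, adjusted p = 0.024) and lower in the cauda (-1.14, p listed as 0), per the authors' deposited table. When the peak itself had to be the site, 176 were present in both comparisons with the caput, 138 of them below 0 in each, and 3 passed the adjusted threshold as lower in each, by the authors' deposited table. Over all sites, 52.5% in corpus over caput and 45.1% in cauda over caput were below 0, per the authors' deposited table. The shares of all sites below 0, or called lower, in both were not counted. The 3 peaks called lower in each, named after their values were seen, were HECTD3, a ubiquitin ligase, CEP120 and RPRD1A, a regulator of RNA polymerase II. HECTD3 had log2 folds of -1.46 (adjusted p = 0.0098) in the corpus and -1.24 (adjusted p = 0.0058) in the cauda, per the authors' deposited table. CEP120 had -1.12 (adjusted p = 0.0074) and -1.61 (adjusted p = 1.9e-04), and RPRD1A -0.86 (adjusted p = 0.0031) and -0.70 (adjusted p = 0.035), per the authors' deposited table. Of their 6 listed adenosines, 1 was classed, in HECTD3.

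Some folds went against the listing. The peak of C22orf46 on chromosome 5, from 121169717 to 121170914, was listed in the caput alone, yet the site with the same span was at a log2 fold of 1.31, higher in the corpus (p listed as 0), per the authors' deposited table. Its cauda over caput log2 fold was -0.42 (adjusted p = 0.060), per the authors' deposited table. A site at another caput-only peak of C22orf46, from 121168341 to 121168741, was lower in the corpus at -1.79 (adjusted p = 1.4e-06), per the authors' deposited table. RSPH4A, part of the radial spokes of motile cilia, had a site higher in the corpus by 1.22 (adjusted p = 0.014) and RGSL1 one by 1.14 (adjusted p = 0.047), per the authors' deposited table. At the same peak of RGSL1 a site was lower in the cauda (-1.37, adjusted p = 0.041), and at its other caput-only peak a site was lower in the corpus (-0.92, adjusted p = 1.4e-07), per the authors' deposited table. The same RSPH4A site was lower in the cauda at -0.58 (adjusted p = 0.0017), per the authors' deposited table. Another site of RSPH4A, on chromosome 10 from 58012524 to 58012724, was lower in the cauda at -1.46 (p listed as 0), per the authors' deposited table. At the C9orf131 peak, a site of 1289 bases was higher in the corpus by 0.19 (adjusted p = 5.8e-10), per the authors' deposited table. A second site of 249 bases at that peak was lower in the corpus at -0.079 (adjusted p = 0.038), per the authors' deposited table. In cauda over caput, the 2 higher sites were those of PSKH1, a protein kinase (0.63, adjusted p = 0.018), and of ADAM28 (0.13, adjusted p = 7.8e-05), per the authors' deposited table.

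**Figure D4:**
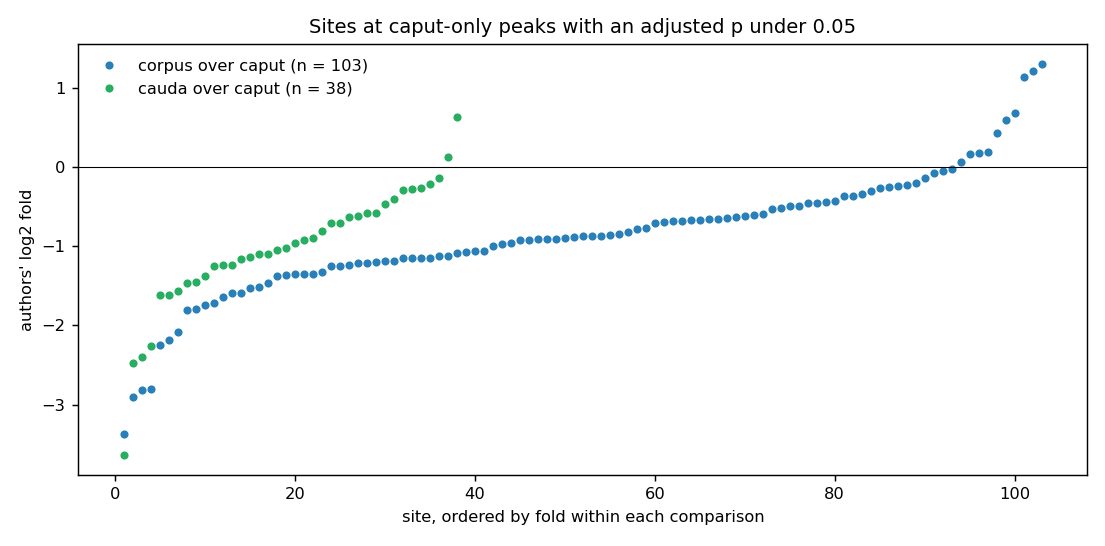
The authors' log2 fold (vertical axis) of every site that covers a caput-only peak and has an adjusted p under 0.05, ordered by fold, for corpus over caput (blue) and cauda over caput (green). Of these, 93 and 36 lie below 0, and 10 and 2 above.

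Caput-only peaks were also counted over gene lists. Over all genes with a symbol, 1208 of 7313 in the caput list (16.5%) had one. Counts in a list are small, and no test of a list was made. Several entries of the lists were taken from earlier results of these data (among them ATP6V1B1, ATP6V1G3, FOXI1, HEPACAM2, STAP1, TSKS, CYLC1, SPZ1, ACTL7B, CABS1, CAPZA3, TTC16, ZNF474 and HEMGN), so their counts are not independent evidence of a direction. Among lists with at least 4 genes in the caput list, the highest shares were those of clear and narrow cell genes (8 of 11), sperm and spermatid genes (8 of 12) and multiciliated cell genes (9 of 20). For the corresponding single-region peaks, the counts were 1 of 4, 0 of 2 and 1 of 9 in the corpus and 0 of 4, 0 of 7 and 1 of 9 in the cauda, where over all genes the shares were 14.2% and 16.0%. As these 3 lists were filled, the caput list thus held more of their genes to begin with. Without all list genes named in earlier results of these data, a setting added after seeing the data, the counts in the caput were 2 of 4, 1 of 3 and 5 of 15. In that setting they were 1 of 3, 0 of 1 and 1 of 8 in the corpus and 0 of 2, 0 of 3 and 1 of 7 in the cauda. With so few genes left, the shares of 8 of 11, 8 of 12 and 9 of 20 describe these lists as filled and do not show which kinds of genes carry the peaks.

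The clear and narrow cell genes with a caput-only peak were ATP6V1B1 and ATP6V1G3 (both parts of the vacuolar proton pump), FOXI1, the transcription factor of acidifying cells, the chloride channel gene CFTR, the channel subunit gene BSND, the anion exchanger gene SLC26A4, HEPACAM2 and STAP1. STAP1 is also in the leukocyte list. CFTR had 3 classed of 6 adenosines, with a top score of 0.669, in a peak spanning 31919 bases, and a log2 fold of 0.13 in cauda over caput (adjusted p = 0.98), per the authors' deposited table. ATP6V1B1 had 2 peaks on chromosome 9. The peak from 32225780 to 32225977 held 3 adenosines, 0 classed, and had a log2 fold of -1.35 in corpus over caput (adjusted p = 0.014), while the peak from 32224892 to 32225138 held 5, of which 2 were classed, and had 1.88 (adjusted p = 0.87), per the authors' deposited table. ATP6V1G3 had 5 adenosines, 0 classed, and a log2 fold of -0.99 (adjusted p = 0.036) in corpus over caput, per the authors' deposited table. FOXI1 had 2 adenosines, 0 classed, and a log2 fold of -0.098 (adjusted p = 0.69) in corpus over caput, per the authors' deposited table.

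The sperm and spermatid genes were Tsks, CYLC1, SPZ1, AKAP3, Actl7b, CAPZA3, CABS1 and ODF2. CAPZA3, a testis-specific actin capping subunit, held 3 classed of 20 adenosines on chromosome 5, from 11347919 to 11348568, with a top score of 0.722. AKAP3, a scaffold of the sperm tail, held 5 classed of 16 and had a corpus over caput log2 fold of -0.30 (adjusted p = 0.014), per the authors' deposited table. SPZ1, a transcription factor of sperm formation, held 1 classed of 8 and was lower in the corpus at -1.23 (p listed as 0), per the authors' deposited table. Actl7b, an actin-like protein of the sperm head, held 1 classed of 4 and had a cauda over caput log2 fold of -0.25 (adjusted p = 0.58), per the authors' deposited table. The part of sperm and of adjoining ducts in the caput libraries was not tested.

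The multiciliated cell genes were TTC16, RSPH4A, TEKT1, ZNF474, CFAP45, DEUP1, DNAI1, SPAG16 and SPAG17. TTC16 had the fullest of their peaks, with 6 classed of 31 adenosines. TEKT1, a filament protein of cilia, held 1 classed of 10 and had log2 folds of -0.45 (adjusted p = 0.014) in the corpus and -0.49 (adjusted p = 0.095) in the cauda, both over the caput, per the authors' deposited table. ZNF474 held 2 classed of 7. RSPH4A held 2 classed of 10 adenosines in 1 peak and 0 of 6 in the other.

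Of the epididymal secretory genes, 2 of 7 had caput-only peaks, ADAM28 with 4 peaks and CLU, the chaperone clusterin, with 1. For peaks listed only in the corpus or only in the cauda, the counts were 1 of 6 and 2 of 5. The ADAM28 peaks held 37 adenosines, 6 of them classed, with a top score of 0.724, and no peak assigned to ADAM28 was listed elsewhere. The peak of CLU held 2 classed of 3 and had log2 folds of -0.78 (adjusted p = 0.25) in the corpus and 0.11 (adjusted p = 0.84) in the cauda, both over the caput, per the authors' deposited table. Among beta-defensins 1 of 4 had a caput-only peak, DEFB118, with 0 classed of 6 adenosines and a cauda over caput log2 fold of -1.57 (adjusted p = 0.0066), per the authors' deposited table. Of the ion and water transport genes, 2 of 7 had one, against 2 of 8 in the corpus and 4 of 8 in the cauda for the peaks of those regions. CA12, a carbonic anhydrase, held 4 classed of 12 and was lower in the corpus (-0.86, adjusted p = 0.028) and the cauda (-1.23, adjusted p = 0.014), per the authors' deposited table. The anion exchanger gene SLC26A6 held 0 classed of 1. These 3 lists also held genes named in earlier results of these data. Without them, the caput counts were 1 of 6 for secretory genes, 0 of 2 for beta-defensins and 1 of 6 for ion and water transport.

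Other lists were near or below the share over all genes, or rested on few genes. Junction genes had 2 of 11 (CLDN10 and CTNNA1), m6A writers, erasers and readers 2 of 18 (the reader gene HNRNPA2B1, with 3 classed of 6, and Rbm15 of the writer complex, with 0 of 2), and steroid and growth factor signalling genes 2 of 18 (ERBB3 and HSD17B4). HOX genes had 0 of 18, against 3 of 17 in the corpus and 6 of 22 in the cauda for the peaks of those regions. Without the list genes named in earlier results of these data, the HOX counts were 0 of 18, 3 of 17 and 3 of 19. Among markers of other cells, the counts were 3 of 7 for leukocytes (ITGAM, PTPRC and STAP1), 3 of 9 for fibroblasts (COL1A1, PDGFRA and PDGFRB), 1 of 10 for smooth muscle (MYH11), 1 of 8 for endothelium (VWF), 1 of 4 for basal cells (COL17A1), 1 of 1 for erythrocytes (HEMGN) and 0 of 2 for neurons. In the corpus list the leukocyte and fibroblast counts were 1 of 7 and 3 of 7, and in the cauda list 2 of 8 and 2 of 8. Without the genes named earlier, the leukocyte counts were 1 of 5 in the caput, 1 of 6 in the corpus and 1 of 6 in the cauda. The fibroblast counts were then 2 of 8, 2 of 6 and 2 of 7. HEMGN, which encodes hemogen, a nuclear protein of blood cell formation, held 31 adenosines in 1 peak and 10 in the other, with 1 classed in each. Its 3 sites past the adjusted threshold had log2 folds of -2.08, -1.53 and -1.09 in corpus over caput (adjusted p = 0.0042, 0.0022 and 0.0076), per the authors' deposited table.

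**Figure D5:**
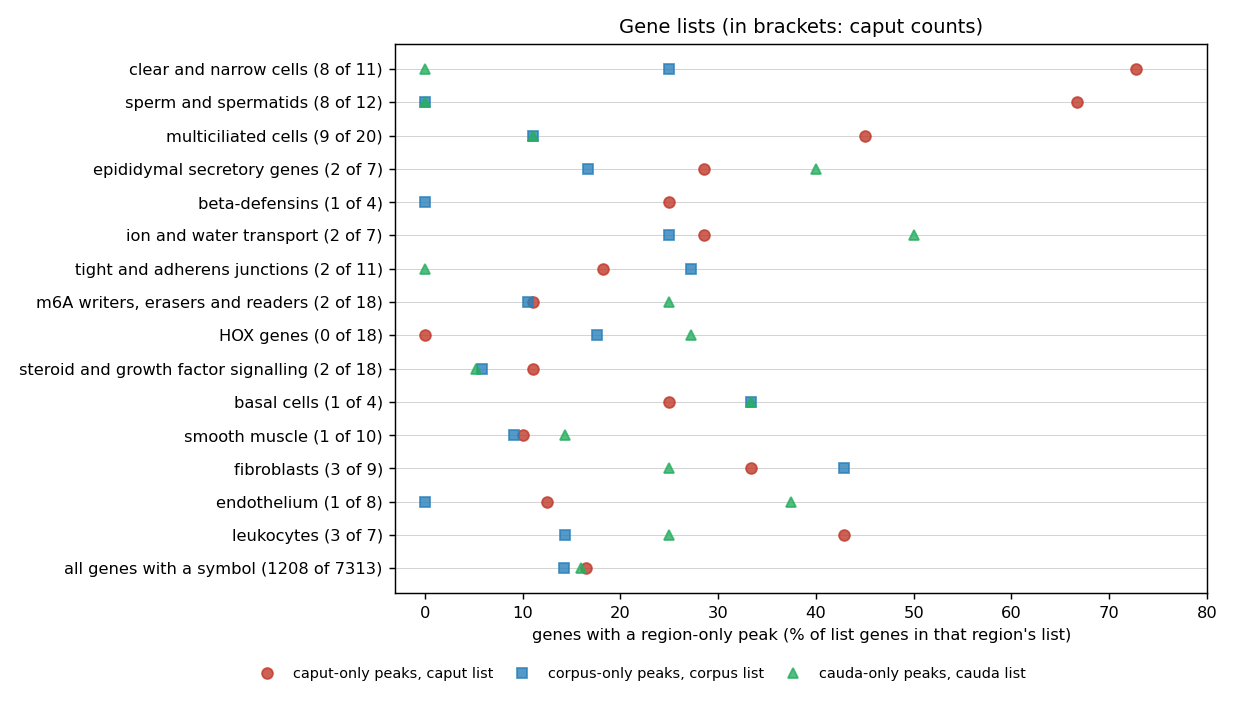
For each gene list with at least 4 genes in the caput list, the share of its genes in a region's list that had a peak listed in that region alone (red circles caput, blue squares corpus, green triangles cauda; caput counts in brackets). Clear and narrow cell, sperm and spermatid, and multiciliated cell genes stand at 72.7%, 66.7% and 45.0% in the caput, but these lists were partly filled from earlier results of these data (without such genes 2 of 4, 1 of 3 and 5 of 15).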

How the data were processed

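The authors deposited 1 list of candidate adenosines per region, with a prediction score per adenosine, per the file headers. The authors also deposited, per pair of regions, a table of sites with a p-value, an adjusted p-value, a ratio (fold) and the log2 of that ratio, as the headers name them. The submitters' processing notes name Trimmomatic, HISAT2 and deepTools. Peak caller, site predictor, test and genome build: not given in the sources used here. A fold of corpus over caput is above 1 where the corpus is higher.

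A position on several lines kept only its highest combined score. A peak is a distinct source span. Genes were those whose sites, in any comparison table, covered a position of the peak (intervaltree 3.1.0); symbols came from the deposited annotation (9319 of 9629 genes matched). Starts were counted from 0 and are printed from 1. Shares have 95% Wilson intervals (statsmodels 0.14.6). The rule was tested on simulated data. Named peaks, all assigned to exactly 1 gene with a symbol, were the 8 with the most classed adenosines, the 8 with the highest score, per comparison with the caput the 6 lowest and 3 highest log2 folds at an adjusted p under 0.05, and up to 4 per list by score. The members and the 17 gene lists were chosen with earlier results of these data known. The 9 expression columns carry codes that match no label and were not used. Sequence contexts were not analysed here, as no genome was used, so the planned count of motifs was not made.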

Additional observations from a re-analysis of the deposited data

How the results depend on the processing

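No paired analysis was possible because the m6A lists and comparison tables carry no values per library and the 9 expression columns match no label, and for the same reason no library was left out. The count of 2290 caput-only peaks was unchanged when spans from first to last adenosine had to be apart, and was 2698 with under 50% of adenosines shared and 2143 with whole spans apart. It was 728 with at least 5 adenosines per peak, 3777 against the corpus list alone and 3620 against the cauda list alone. Classed adenosines made up 17.4%, or 16.9% over all lines, 18.8% in peaks of at least 5 adenosines and 6.21% at high or very high confidence. Peaks with a classed adenosine made up 42.1%, or 68.0% in peaks of at least 5 adenosines and 18.3% at high or very high confidence. With several genes per peak, 1238 genes had a caput-only peak and 495 had no other, against 1228 and 493. Sites lower in the corpus or cauda numbered 129 in both comparisons together, 453 at an unadjusted p under 0.05, 55 among sites of 1 block and 47 among sites with the span of the peak. For corpus over caput these were 93, 274, 39 and 38, and for cauda over caput 36, 179, 16 and 9, all per the authors' deposited table. Both smaller settings use fewer sites, but for cauda over caput the called share also differed, at 2.08% of 432 sites with the span of the peak against 3.72% of 969, and the cause was not tested. The settings of whole spans, single lists, same spans and gene lists without earlier-named genes were chosen after seeing the data. The depth behind the peaks is unknown, so no detection limit can be given for a peak missing from a list.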

Other observations

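In the caput-only peak of PLIN4, the 12 listed adenosines form 6 pairs exactly 99 bases apart, the most frequent distance among them (the next was found 2 times). The first pair lies at 20634943 and 20635042 of chromosome 8. In 4 of the 6 pairs the binary component of the score was identical, as in the pair at 0.671. The combined scores of the pair at 20634959 and 20635058 were 0.686 and 0.682. PLIN4 is known for a long run of near-identical repeats, so its values are uncertain. PLIN4 had 5 caput, 3 corpus and 4 cauda peaks in all. The same-span site had log2 folds of -0.50 (corpus, adjusted p = 0.89) and -0.55 (cauda, adjusted p = 0.99) over the caput, per the authors' deposited table.

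These genes were chosen after their values were seen. PDZD2 carried more caput-only peaks than any other gene with a symbol, 7 of its 9 caput peaks, with 49 adenosines of which 14 were classed, while the corpus and cauda lists had 1 peak each. Of the 7, only the peak from 40856132 to 40856480 had sites at an adjusted p under 0.05, per the authors' deposited table. Sites at the others had log2 folds over the caput from -1.47 to 0.27 (adjusted p from 0.069 to 0.90), per the authors' deposited table. CNKSR2, Cfap58, ADAM28, JHY and KIF21B had 4 caput-only peaks each and no peak assigned to them elsewhere. Cfap58 encodes a protein of cilia and sperm flagella, and its 4 peaks held 3 classed of 32 adenosines. The 4 peaks of KIF21B, a kinesin motor gene, held 5 adenosines in all, of which 2 were classed.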
